A study of Mus musculus with 8 samples.

Results

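The barcodes described here are those with fewer than 50 UMIs in a library of mouse colon, called shallow barcodes below. A UMI is a molecular tag that lets each captured RNA molecule be counted once. They were chosen by their total UMI count alone, and number 4554 of the 8588 barcodes in the series (53.0%), with 122567 of its 1160832 UMIs (10.6%). Each library came from the colon of 1 C57BL/6 mouse with no transgene or deletion named in the labels. The mice had eaten either fish oil with pectin (4 mice) or corn oil with cellulose (4 mice) for 3 weeks. From each paraffin block holding a rolled, formalin-fixed colon, 2 sections of 50 µm were taken for the 10x Genomics Flex assay, in which probe pairs, each made for 1 gene, stand in for the RNA that is counted, and which tags several samples in one run. The shallow barcodes were not spread over the mice: 64 were in fish oil/pectin replicate 1, 1 in fish oil/pectin replicate 2 and 4489 in corn oil/cellulose replicate 1, which held 98.6% of them. The other 5 libraries had none.

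A mouse cell carries many copies of a small circular mitochondrial genome, whose protein-coding genes all encode subunits of the respiratory chain and ATP synthase; mt-Nd6 is the only one of them encoded on the light strand. Red cells fill with haemoglobin, a tetramer of alpha and beta globin chains around haem, and keep little other RNA. The colon wall joins a lining of absorptive colonocytes and mucus-secreting goblet cells to a lamina propria of fibroblasts, vessels and immune cells and an outer coat of smooth muscle. The sample titles speak of colonocytes, but no sort is named, and the shares of each class of marker are given below.

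A barcode in this assay joins 16 bases that name the droplet to 8 bases that name the sample, so one droplet can appear in several libraries run together. The pair below shows a droplet found in both libraries at under 50 UMIs; capitals mark the sample barcode.
fish oil/pectin replicate 1: ggcaacatcaaccaaaATGTTGAC
corn oil/cellulose replicate 1: ggcaacatcaaccaaaACTTTAGG
Each member of this pair had 42 UMIs, of which 1 was mitochondrially encoded in the fish oil/pectin barcode and 19 were in the corn oil/cellulose barcode. These barcodes of 1 droplet thus differed in mitochondrial content at equal depth. The pair was picked for its UMI count, the highest among 7 droplets under 50 UMIs in both libraries. The other pairs are not shown, and 1 pair says nothing about droplets in general. Over pairs of libraries, shared droplets fell into 2 sets of 4 libraries, and both libraries with 10 or more shallow barcodes were in the same set. The sets were made from these same shared droplets, so more sharing within a set than between sets follows from the rule. Fish oil/pectin replicate 4 joined its set on 6 of its 292 barcodes, shared with fish oil/pectin replicate 2. It shared 3 with corn oil/cellulose replicate 1, of the other set. Of the shallow barcodes of fish oil/pectin replicate 1, 15 of 64 (23.4%, exact binomial 95% interval 13.8 to 35.7%) sat in a droplet also listed in another library of that set. None of the 64 was listed in the other set, which allows a share of up to 4.69% (3 counts of the total, not the exact interval). For corn oil/cellulose replicate 1 the counts were 90 of 4489 (2.00%, 1.62 to 2.46%) within the set and 16 of 4489 (0.356%, 0.204 to 0.578%) in the other. The deep barcodes, those of at least 100 UMIs, shared droplets within the set in 19 of 135 cases (14.1%) in fish oil/pectin replicate 1 and 5 of 245 (2.04%) in corn oil/cellulose replicate 1, inside the intervals of the shallow ones. These shares depend on the number of barcodes in the other libraries, 5734 for the first library and 844 for the second. No doublet caller was run on barcodes this shallow.

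Depth was the criterion of choice and is given as a description. The lowest barcode had 32, 35, 67 and 348 UMIs in fish oil/pectin replicates 1 to 4 and 18, 77, 332 and 205 UMIs in corn oil/cellulose replicates 1 to 4. The shallow barcodes had a median of 40 UMIs in fish oil/pectin replicate 1 and 24 in corn oil/cellulose replicate 1. They made up 22.1% of the barcodes and 7.42% of the UMIs of the first library, and 86.7% of the barcodes and 62.1% of the UMIs of the second. Between the classes lay 91 barcodes of 50 to 99 UMIs in fish oil/pectin replicate 1 and 446 in corn oil/cellulose replicate 1. The single barcode of fish oil/pectin replicate 2 stood apart from its own library, where the next lowest had 63 UMIs.

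**Figure D1:**
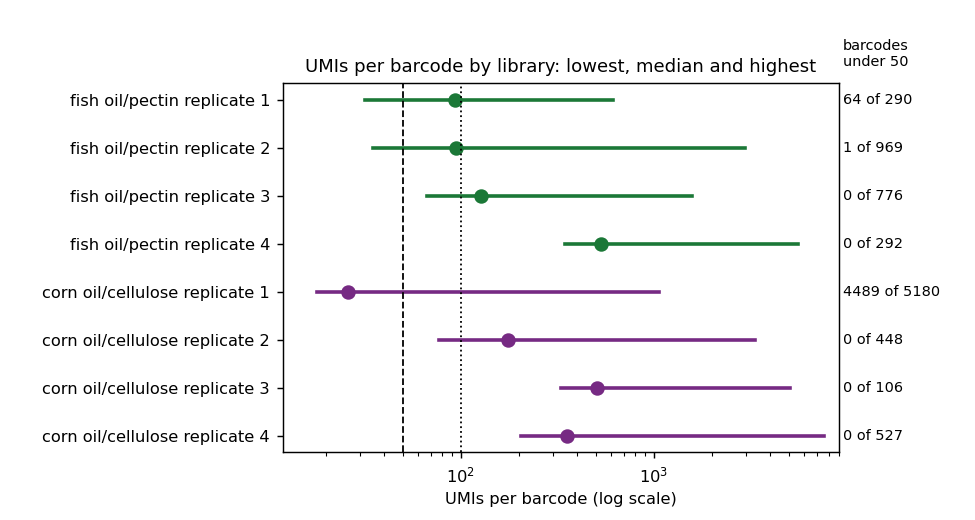
UMIs per barcode (log scale) in the 8 libraries, with lines from the lowest to the highest barcode, points at the median, a dashed line at 50 and a dotted line at 100 UMIs; the number under 50 UMIs stands at the right. The median of corn oil/cellulose replicate 1, 26 UMIs, is the only one under 50.

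Mitochondrially encoded RNA was the largest single component of the shallow barcodes. In fish oil/pectin replicate 1 it made up 24.2% of the UMIs of shallow barcodes, against 2.42% in deep barcodes, a ratio of 9.98 (95% interval 8.91 to 11.2). The corn oil/cellulose library, replicate 1, had 46.1% in shallow barcodes, against 15.2% in deep barcodes, a ratio of 3.04 (2.96 to 3.12). The share was thus higher in shallow barcodes of both libraries, and the shallow barcodes of the fish oil/pectin library stood above the deep barcodes of either. All such intervals are exact, and cover counting error only, not the spread between barcodes or mice. In fish oil/pectin replicate 1 the variance over barcodes was 15.3 (shallow) and 20.5 (deep) times the binomial one for mitochondrially encoded genes. For globin it was 33.5 and 155 times, and for the epithelial list 1.26 and 3.03 times. Intervals of mitochondrial and globin shares are thus too narrow even within 1 library. Of the 15 genes with the most UMIs in the shallow barcodes of these 2 libraries summed, 13 were the mitochondrially encoded genes and the other 2 were the globins Hbb-bs and Hba-a2. The next, at ranks 16 to 20 of all genes, were the goblet genes Muc2, Fcgbp and Tff3, the acute-phase gene Saa1 and the keratin Krt8. This ranking is mostly that of corn oil/cellulose replicate 1, with 119953 shallow UMIs against 2579 in fish oil/pectin replicate 1. In the shallow barcodes of fish oil/pectin replicate 1, Hbb-bs (116 UMIs) and Hba-a2 (101) stood above mt-Co1 (98), and Tff3 had 0.

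mt-Nd6, a subunit of complex I, had 223 UMIs in the shallow barcodes of fish oil/pectin replicate 1, against 242 in its deep barcodes, although the deep sum was 25482 UMIs and the shallow sum 2579. Its count in corn oil/cellulose replicate 1 was 19858 UMIs in shallow barcodes, of a sum of 119953, against 1823 in deep barcodes, of a sum of 43643. Per UMI counted, mt-Nd6 was 9.10 times as high in shallow barcodes in the fish oil/pectin library and 3.96 times in the corn oil/cellulose library. This order of the libraries turned with TMM scaling of each library alone, which applies 1 factor per library to the ratios of all genes. It gave mt-Nd6 a log2 fold change of 1.00 in the fish oil/pectin library and 2.81 in the corn oil/cellulose library, with no test. The same factors turned the orders given below for other genes. Shares and ratios per UMI counted are not scaled by TMM. mt-Nd2, another complex I subunit, had 27 UMIs in shallow and 14 in deep barcodes of fish oil/pectin replicate 1, and 2035 in shallow and 175 in deep barcodes of corn oil/cellulose replicate 1. mt-Co1, the catalytic subunit of cytochrome c oxidase, had 98 and 63 UMIs in shallow and deep barcodes of fish oil/pectin replicate 1, and 7595 and 1371 in those of corn oil/cellulose replicate 1. The make-up of the mitochondrial RNA was close in the shallow barcodes of both libraries: mt-Nd6 gave 35.8% of it in fish oil/pectin replicate 1 and 35.9% in corn oil/cellulose replicate 1, and mt-Co1 gave 15.7% in the first library and 13.7% in the second. In deep barcodes mt-Nd6 gave 39.2% in the fish oil/pectin library and 27.5% in the corn oil/cellulose library.

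Summed counts were compared between shallow and deep barcodes over these 2 libraries with edgeR's quasi-likelihood test, with the library as a block, which leaves 1 residual degree of freedom. Of 771 genes with enough counts, 3 (0.389%) were higher in shallow barcodes and 4 (0.519%) lower at a Benjamini-Hochberg adjusted p under 0.05, 0.908% in either direction; 77 had an unadjusted p under 0.05. The 3 higher genes were mt-Nd6 (log2 fold change 2.21, SE 0.50, adjusted p = 0.00221), mt-Nd2 (2.77, SE 0.71, adjusted p = 0.0146) and mt-Co1 (2.07, SE 0.55, adjusted p = 0.0183). With TMM scaling of each library alone, mt-Nd2 had 1.88 in the fish oil/pectin library and 2.90 in the corn oil/cellulose library, and mt-Co1 had 1.72 and 1.84 in these libraries. Per UMI counted the order was the other way. There mt-Nd2 was 19.1 and 4.23 times and mt-Co1 15.4 and 2.02 times as high in shallow barcodes of these libraries. The genes mt-Nd6, mt-Nd2 and mt-Co1 lie on mitochondrial DNA, at chrM:13552-14070 on the minus strand, chrM:3914-4951 and chrM:5328-6872 of GRCm38. All 13 mitochondrially encoded genes had a fold change above 0, with a median of 2.11 on the log2 scale, beside a median of -0.20 over the 771 genes (-0.42 when scaled by library size only). Over all 771 genes, 332 lay above 0 and 439 below. The total that chose the barcodes includes the UMIs of every gene tested, and genes with too few counts in these sums were not tested. A gene could pass the count filter through the class where it was high. Counts of list genes above or below 0, here and below, are therefore descriptions and not tests. The calls depend on the fit: with DESeq2, 1 gene was lower and none higher (32 at an unadjusted p under 0.05), and scaling by library size only left none higher. With edgeR and no filter on low counts, or with no library block, no gene was called in either direction (3 and 95 at an unadjusted p under 0.05).

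**Figure D2:**
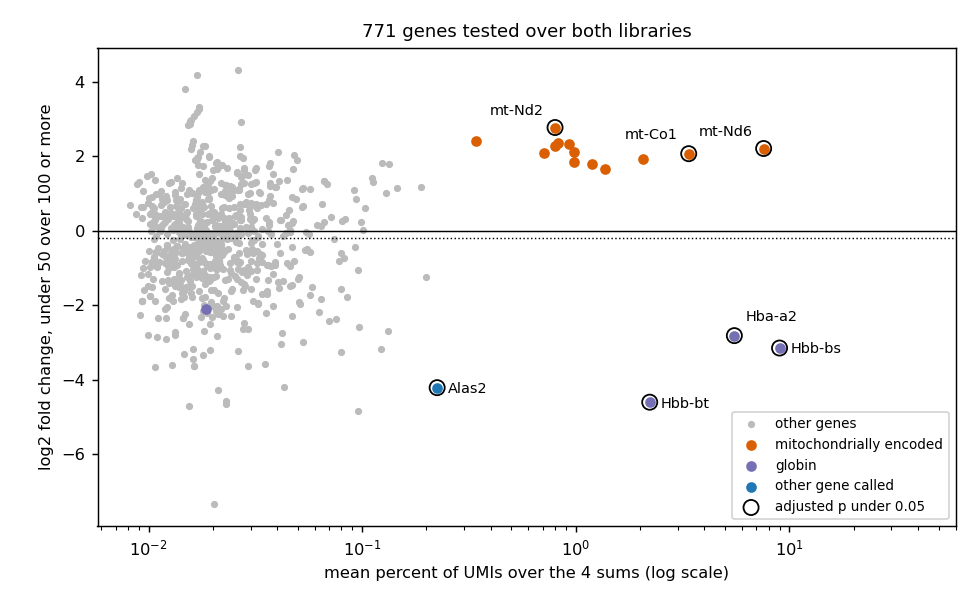
Log2 fold change of 771 genes, shallow over deep barcodes, against the mean percent of UMIs over the 4 sums (log scale), from edgeR; circles mark adjusted p under 0.05 and the dotted line is the median of all genes, -0.20. The 13 mitochondrially encoded genes lie above 0 and the 4 globin genes tested lie below it.

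Globin RNA ran the other way. It made up 9.11% of the UMIs of shallow barcodes in fish oil/pectin replicate 1, against 42.6% in deep barcodes (ratio 0.214, 0.187 to 0.243). Corn oil/cellulose replicate 1 had 1.38% in shallow barcodes, against 14.0% in deep barcodes (ratio 0.0984, 0.0931 to 0.104). Hbb-bs, an adult beta globin on chromosome 7 (103826534 to 103828096, GRCm38), had 116 UMIs in shallow and 5711 in deep barcodes of the fish oil/pectin library, and 1054 in shallow and 3585 in deep barcodes of the corn oil/cellulose library. With a log2 fold change of -3.15 (SE 0.51), it had an adjusted p of 5.82e-07 in edgeR. With TMM scaling of each library alone the log2 fold change of Hbb-bs was -4.48 in the fish oil/pectin library and -2.39 in the corn oil/cellulose library. Per UMI counted the order of the libraries was the other way, with ratios of shallow to deep of 0.201 and 0.107. Hba-a2, an alpha globin on chromosome 11 (32296489 to 32297298), had 101 and 3631 UMIs in shallow and deep barcodes of fish oil/pectin replicate 1. It had 524 and 1533 in those of corn oil/cellulose replicate 1 (log2 fold change -2.82, SE 0.53, edgeR adjusted p = 3.69e-05). With TMM scaling of each library alone Hba-a2 had -4.02 in the fish oil/pectin library and -2.17 in the corn oil/cellulose library. Per UMI counted its ratios were 0.275 and 0.124 in these libraries, again in the other order. Hbb-bt, the other adult beta globin, had 17 UMIs in shallow and 1507 in deep barcodes of the fish oil/pectin library, and 70 in shallow and 981 in deep barcodes of the corn oil/cellulose library (log2 fold change -4.60, SE 0.64, edgeR adjusted p = 1.58e-09). Hbb-bs and Hbb-bt are near-identical, as are Hba-a1 and Hba-a2, so the split of UMIs within each pair is uncertain; Hba-a1 was listed with 1 UMI in shallow and 4 in deep barcodes of the fish oil/pectin library, and 2 in shallow and 8 in deep barcodes of the corn oil/cellulose library. All 4 globin genes tested had a fold change below 0, beside 439 of all 771 genes.

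Genes that red cells use beside globin took a smaller share as well. Alas2, the first enzyme of haem synthesis in red cells (chromosome X, 150547375 to 150570638, GRCm38), had 1 UMI in shallow and 152 in deep barcodes of fish oil/pectin replicate 1, and 15 in shallow and 109 in deep barcodes of corn oil/cellulose replicate 1. It was the 1 called gene that is neither globin nor mitochondrial (log2 fold change -4.21, SE 1.11, edgeR adjusted p = 0.0183). Its call ended with RLE size factors (log2 fold change -4.23, edgeR adjusted p = 0.0611), and Alas2 was called in 5 of 11 fits; alone, the fish oil/pectin library gave -4.97 and the corn oil/cellulose library -3.30. Over the whole red cell list, 17 genes in the files, the share was 0.194% in shallow barcodes against 1.48% in deep barcodes of the fish oil/pectin library (ratio 0.131, 0.0423 to 0.309). In the corn oil/cellulose library it was 0.0884% in shallow barcodes against 0.733% in deep barcodes (ratio 0.121, 0.0958 to 0.151). Of this list 6 genes were tested, and all 6 had a fold change below 0, beside 439 of all 771 genes. Bpgm, which makes a phosphate that loosens oxygen from haemoglobin, had 0 UMIs in shallow and 48 in deep barcodes of the fish oil/pectin library, and 17 in shallow and 51 in deep barcodes of the corn oil/cellulose library.

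In corn oil/cellulose replicate 1 the mitochondrial share was for the most part lower and the globin share higher in deeper barcodes on either side of the threshold, while the fish oil/pectin library showed no such order under 50 UMIs. Just under it, barcodes of 45 to 49 UMIs had a mitochondrial share of 25.5% in fish oil/pectin replicate 1 and 42.3% in corn oil/cellulose replicate 1. Just over it, barcodes of 50 to 54 UMIs had 23.7% in fish oil/pectin replicate 1 and 39.7% in corn oil/cellulose replicate 1. The globin share in fish oil/pectin replicate 1 was 7.45% just under and 13.9% just over the threshold. In corn oil/cellulose replicate 1 it was 3.84% just under and 3.96% just over. These bins held only 10 and 7 barcodes in fish oil/pectin replicate 1, beside 142 and 117 in corn oil/cellulose replicate 1. In corn oil/cellulose replicate 1 the mitochondrial share was 48.8% at 20 to 21 UMIs, 44.9% at 30 to 34, 42.1% at 40 to 44, 29.7% at 60 to 79 and 16.9% at 100 to 149. In fish oil/pectin replicate 1 the mitochondrial share ranged between 15.9% and 28.7% and the globin share between 3.29% and 17.9% in the bins under 50 UMIs, which rest on 8 to 26 barcodes each. At 55 to 59 UMIs, in 9 barcodes, its mitochondrial share was 6.65% and its globin share 21.9%.

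**Figure D3:**
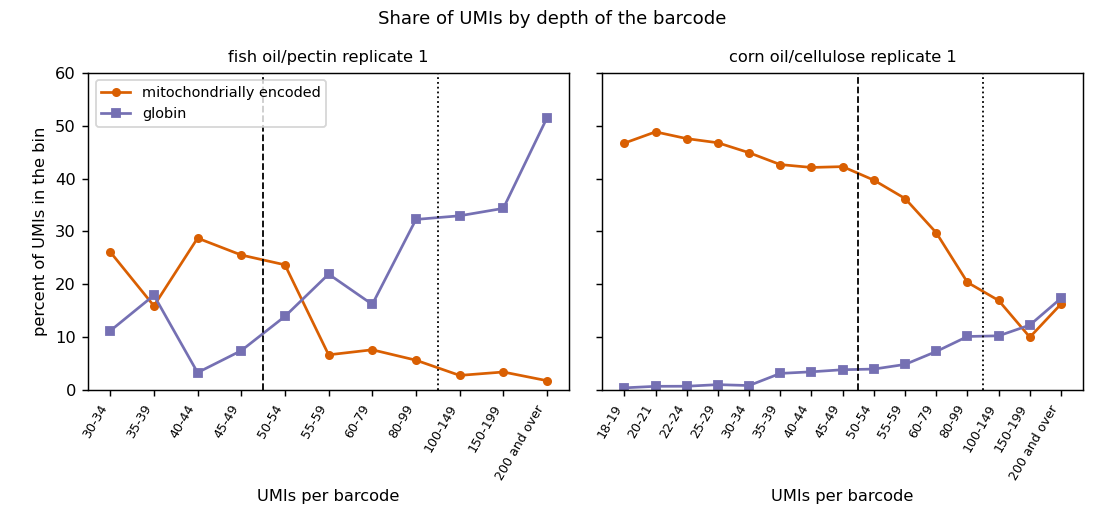
Percent of UMIs that are mitochondrially encoded (circles) or globin (squares) in barcodes grouped by their UMIs, in the 2 libraries; dashed and dotted lines stand at 50 and 100 UMIs. In corn oil/cellulose replicate 1 the mitochondrial share is 48.8% at 20 to 21 UMIs and 16.9% at 100 to 149 UMIs.

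The pooled shares came about differently in each library. In corn oil/cellulose replicate 1, 4479 of the 4489 shallow barcodes had a mitochondrially encoded UMI, the median barcode had 47.6%, the central range from the percentiles 5 and 95 was 14.7% to 74.4%, and 2116 barcodes were at 50% or more. Its 245 deep barcodes had a median of 4.29%, and 27 of them were at 50% or more. In fish oil/pectin replicate 1 the 64 shallow barcodes had a median of 11.1%, with quartiles of 5.23% and 34.7%, and 12 barcodes at 50% or more held 345 of the 623 mitochondrial UMIs. Its 135 deep barcodes had a median of 1.32%, and none reached 50%. Single barcodes of this size carry coarse shares, since 1 UMI of 24 is already several percent.

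**Figure D4:**
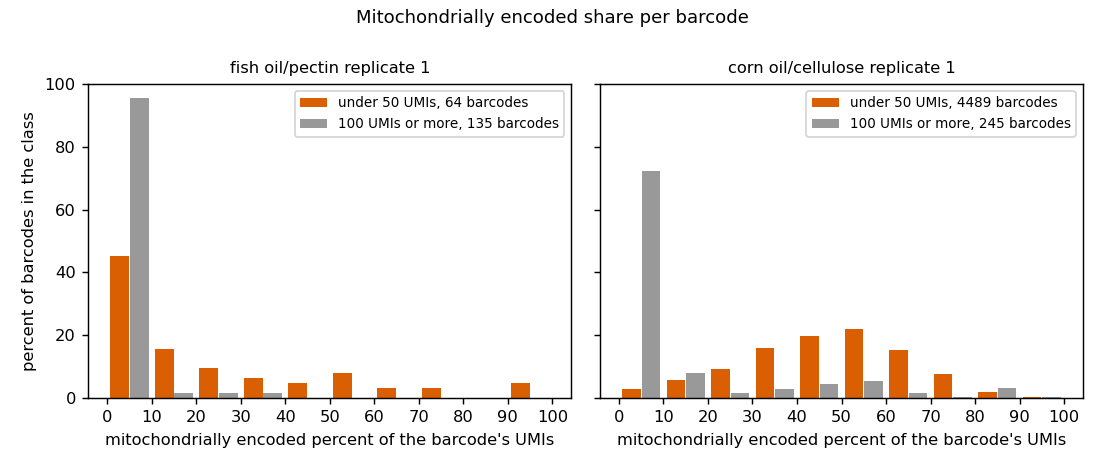
Percent of barcodes in each class by the mitochondrially encoded percent of their own UMIs, in steps of 10, for shallow and deep barcodes of the 2 libraries. In corn oil/cellulose replicate 1 the shallow barcodes centre on a median of 47.6%, while 177 of 245 deep barcodes lie under 10%.

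Globin was held by few shallow barcodes. In fish oil/pectin replicate 1, 7 of the 64 shallow barcodes were at least 50% globin and held 232 of the 235 globin UMIs, while 54 had none. Of the 135 deep barcodes, 61 were at least 50% globin, and they held 10832 of 10853 UMIs. Among the shallow barcodes of corn oil/cellulose replicate 1, 50 of 4489 were at least 50% globin and held 1195 of 1652 globin UMIs, against 37 of 245 deep barcodes, which held 6083 of 6108.

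Marker genes of the colon lining took a larger share of shallow barcodes in corn oil/cellulose replicate 1. In fish oil/pectin replicate 1 the direction depended on the depth limit and on the scaling. The epithelial list made up 0.582% of the UMIs of shallow barcodes against 0.235% in deep barcodes of fish oil/pectin replicate 1 (ratio 2.47, 1.30 to 4.40), from 15 and 60 UMIs. It made up 0.990% in shallow barcodes against 0.486% in deep barcodes of corn oil/cellulose replicate 1 (ratio 2.04, 1.76 to 2.37), from 1187 and 212 UMIs. When shallow meant under 40 UMIs, the share was 0.197% against 0.235% in deep barcodes of the fish oil/pectin library, from 2 UMIs in 28 barcodes, and 0.999% against 0.486% in the corn oil/cellulose library. With globin and mitochondrial UMIs left out of the total, the shares were 0.872% in shallow and 0.428% in deep barcodes of the fish oil/pectin library, and 1.88% in shallow and 0.686% in deep barcodes of the corn oil/cellulose library. Krt8, a keratin of simple epithelia, had 5 and 15 UMIs in shallow and deep barcodes of fish oil/pectin replicate 1, and 272 and 44 in those of corn oil/cellulose replicate 1. Per UMI counted, Krt8 was 3.29 times as high in shallow barcodes of the fish oil/pectin library and 2.25 times in the corn oil/cellulose library. TMM scaling of the fish oil/pectin library alone, seen above for mt-Nd6, lowers all its shallow to deep ratios by 1 factor. The ratios of Krt8 and of the epithelial list in that library then fall below 1. Of the epithelial list 11 genes were tested, all 11 had a fold change above 0 (median 1.25), and none passed the test. Of all 771 genes, 332 lay above 0. Genes could enter the test through the shallow sums where they were high, so this count is not a test of direction.

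Genes of both mature lineages of the lining were counted; no background share was estimated, so these UMIs do not show which cells the barcodes held. The absorptive colonocyte list made up 0.582% in shallow against 0.334% in deep barcodes of fish oil/pectin replicate 1 (ratio 1.74, 0.935 to 3.04), and 0.911% in shallow against 0.412% in deep barcodes of corn oil/cellulose replicate 1 (ratio 2.21, 1.89 to 2.60). Under 40 UMIs the colonocyte share of the fish oil/pectin library was 0.295%, below that of its deep barcodes, from 3 UMIs. Saa1, a serum amyloid A made by colonocytes, had 4 and 11 UMIs in shallow and deep barcodes of fish oil/pectin replicate 1, and 329 and 27 in those of corn oil/cellulose replicate 1. Car1, a carbonic anhydrase typical of the colon, had 5 UMIs in shallow and 19 in deep barcodes of the fish oil/pectin library, and 208 in shallow and 33 in deep barcodes of the corn oil/cellulose library. The goblet list made up 0.465% in shallow against 0.251% in deep barcodes of the fish oil/pectin library (ratio 1.85, 0.910 to 3.46), and 1.27% in shallow against 0.504% in deep barcodes of the corn oil/cellulose library (ratio 2.52, 2.19 to 2.92). Muc2, the gel-forming mucin, had 6 UMIs in shallow and 19 in deep barcodes of the fish oil/pectin library, and 376 in shallow and 57 in deep barcodes of the corn oil/cellulose library. Fcgbp, a mucus protein, had 3 UMIs in shallow and 7 in deep barcodes of the fish oil/pectin library, and 334 in shallow and 32 in deep barcodes of the corn oil/cellulose library. Per UMI counted, these genes were higher in the shallow barcodes of corn oil/cellulose replicate 1, by 4.43 times for Saa1, 2.29 for Car1, 2.40 for Muc2 and 3.80 for Fcgbp. In fish oil/pectin replicate 1 the values were 3.59 for Saa1, 2.60 for Car1 and 3.12 for Muc2, from 4, 5 and 6 shallow UMIs. Like that of Krt8, these ratios fall below 1 with TMM scaling of that library alone. No ratio was formed there for Fcgbp, with 3 shallow UMIs. Of 10 colonocyte genes tested 9 had a fold change above 0, as did 5 of 6 goblet genes and 332 of all 771 genes. None of the colonocyte and goblet genes passed. Ileal genes were scarce: 0 UMIs in shallow barcodes of fish oil/pectin replicate 1, which allows up to 0.116%, and 58 UMIs (0.0484%) in those of corn oil/cellulose replicate 1, led by Fabp6 with 38. Genes of the enteroendocrine list had 4 and 2 UMIs in shallow and deep barcodes of the fish oil/pectin library, and 50 and 5 in shallow and deep barcodes of the corn oil/cellulose library (ratio 3.64, 1.46 to 11.7). Over the shallow barcodes of both libraries Chgb (21 UMIs) and Chga (11) led this list. Tuft and crypt base genes had 1 UMI each in shallow barcodes of the fish oil/pectin library, and 11 and 65 in those of the corn oil/cellulose library.

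Within the shallow barcodes of corn oil/cellulose replicate 1, lining genes varied with the mitochondrial share of the barcode. In the 120 barcodes under 10% mitochondrial, epithelial genes made up 1.02% and goblet genes 1.59% of the UMIs that were neither globin nor mitochondrial, and globin made up 15.3% of all UMIs. In the 1590 barcodes at 30 to 50% mitochondrial the values were 2.10%, 2.36% and 0.450%. In the 443 barcodes at 70% or more they were 1.99%, 3.11% and 0.182%. Smooth muscle genes lay between 1.35% and 1.75% over 5 such bins.

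The stromal lists did not move together. Fibroblast genes made up 0.271% of the UMIs of shallow barcodes against 0.510% in deep barcodes of fish oil/pectin replicate 1 (ratio 0.532, 0.210 to 1.13), and 0.201% in shallow against 0.827% in deep barcodes of corn oil/cellulose replicate 1 (ratio 0.243, 0.205 to 0.287). C3, a complement protein that fibroblasts secrete, had 1 and 9 UMIs in shallow and deep barcodes of the fish oil/pectin library, and 21 and 174 in those of the corn oil/cellulose library, where the ratio per UMI counted was 0.0439. Col3a1, a fibrillar collagen, had 1 UMI in shallow and 20 in deep barcodes of the fish oil/pectin library, and 26 in shallow and 39 in deep barcodes of the corn oil/cellulose library. Gsn, the list member with the most shallow UMIs, had 1 and 19 in shallow and deep barcodes of the fish oil/pectin library. In the corn oil/cellulose library Gsn went the other way, with 103 of 241 shallow and 20 of 361 deep list UMIs (ratio per UMI counted 1.87). C3 alone gave 174 of those 361. Of 6 fibroblast genes tested 5 had a fold change below 0 (median -2.07), beside 439 of all 771 genes, and no fibroblast gene passed. Smooth muscle genes had ratios on opposite sides of 1 in the libraries: 0.116% in shallow against 0.232% in deep barcodes of fish oil/pectin replicate 1, from 3 and 59 UMIs (ratio 0.502, 0.101 to 1.54), and 0.797% in shallow against 0.339% in deep barcodes of corn oil/cellulose replicate 1, from 956 and 148 UMIs (ratio 2.35, 1.97 to 2.81). Tagln, an actin-binding protein of smooth muscle, had 2 UMIs in shallow and 1 in deep barcodes of the fish oil/pectin library, and 90 in shallow and 15 in deep barcodes of the corn oil/cellulose library. Tpm2, a tropomyosin, had 0 UMIs in shallow and 7 in deep barcodes of the fish oil/pectin library, and 111 in shallow and 12 in deep barcodes of the corn oil/cellulose library. In the fit over both libraries the 9 smooth muscle genes tested all had a fold change above 0 (median 1.10). This stands beside 332 of all 771 genes above 0, and no smooth muscle gene passed.

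Immune markers were few. Plasma cell genes had 3 UMIs (0.116%) in shallow against 13 (0.0510%) in deep barcodes of fish oil/pectin replicate 1, and 272 (0.227%) in shallow against 59 (0.135%) in deep barcodes of corn oil/cellulose replicate 1 (ratio 1.68, 1.26 to 2.26). In fish oil/pectin replicate 1, Xbp1 gave all 3 shallow and 8 of the 13 deep UMIs. Xbp1 is also on the list of genes for folding secreted proteins in the endoplasmic reticulum. Igha, the heavy chain of IgA, had 0 UMIs in shallow and 4 in deep barcodes of the fish oil/pectin library, and 107 in shallow and 18 in deep barcodes of the corn oil/cellulose library. Macrophage genes had 1 and 4 UMIs in shallow and deep barcodes of the fish oil/pectin library, and 86 (0.0717%) in shallow and 73 (0.167%) in deep barcodes of the corn oil/cellulose library (ratio 0.429, 0.310 to 0.594). T and NK cell genes had 2 UMIs, B cell genes none and granulocyte and mast cell genes none in the shallow barcodes of fish oil/pectin replicate 1, where a count of 0 allows up to 0.116%. In those of corn oil/cellulose replicate 1 the counts were 6, 4 and 2 UMIs.

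Genes of energy and iron metabolism were counted from lists that fit the study's title, which names ferroptosis, an iron-dependent death by lipid peroxidation. Nuclear genes of oxidative phosphorylation made up 0.271% in shallow against 0.181% in deep barcodes of fish oil/pectin replicate 1 (interval of the ratio 0.573 to 3.35), and 0.510% in shallow against 0.296% in deep barcodes of corn oil/cellulose replicate 1 (ratio 1.73, 1.43 to 2.10). Their ratio was below that of the mitochondrially encoded genes in both libraries. Cox8a, a nuclear subunit of cytochrome c oxidase, had 0 and 1 UMIs in shallow and deep barcodes of the fish oil/pectin library, and 76 and 9 in those of the corn oil/cellulose library. Fatty acid oxidation genes had a ratio of 2.54 (1.07 to 5.39) in the fish oil/pectin library and 1.63 (1.17 to 2.33) in the corn oil/cellulose library. Iron handling genes had 0.559 (0.112 to 1.73) in the fish oil/pectin library and 0.553 (0.428 to 0.717) in the corn oil/cellulose library. For ferroptosis drivers the ratio was 0.714 (0.255 to 1.62) in the fish oil/pectin library and 0.471 (0.342 to 0.652) in the corn oil/cellulose library, and for suppressors 0.941 (0.245 to 2.59) and 1.27 (0.961 to 1.71) in these libraries. The iron handling list holds Slc25a37, a mitochondrial iron importer that is also abundant in red cells, with 1 and 20 UMIs in shallow and deep barcodes of fish oil/pectin replicate 1, and 10 and 27 in those of corn oil/cellulose replicate 1. Fth1, the ferritin heavy chain, had 0 UMIs in shallow and 1 in deep barcodes of the fish oil/pectin library, and 78 in shallow and 16 in deep barcodes of the corn oil/cellulose library. Between 2 and 7 genes of each of these lists were tested, and none passed.

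**Figure D5:**
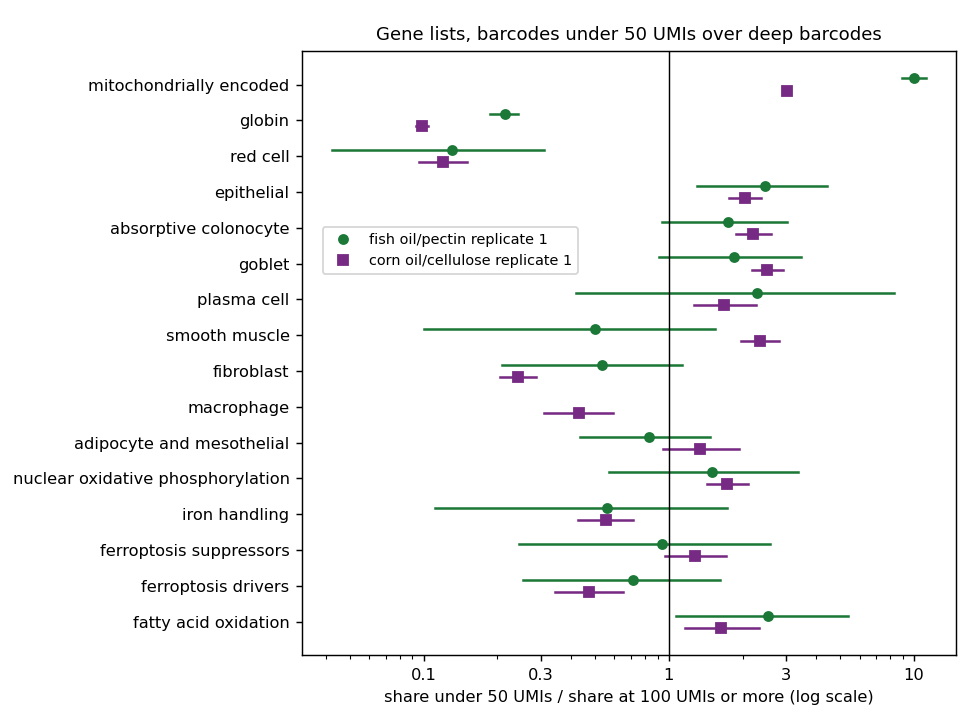
Ratio of the share of UMIs in shallow barcodes to that in deep barcodes of the same library (log scale) for 16 gene lists, with exact 95% intervals that cover counting error only; lists with under 10 UMIs in the 2 classes of a library together are not drawn there. Mitochondrially encoded, epithelial, colonocyte and goblet genes lie right of 1 in both libraries, and globin, red cell and fibroblast genes left of 1.

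Genes per barcode follow depth, so they were compared at 20 UMIs per barcode, as the number expected when 20 UMIs are drawn. The median was 17.9 genes in shallow against 19.3 in deep barcodes of fish oil/pectin replicate 1. It was 15.2 in shallow against 19.5 in deep barcodes of corn oil/cellulose replicate 1, with 52 shallow barcodes of under 20 UMIs left out. As deposited, the medians were 32 genes in shallow and 99 in deep barcodes of the fish oil/pectin library, and 18 in shallow and 113 in deep barcodes of the corn oil/cellulose library. With globin and mitochondrial genes left out, the medians at 20 UMIs were 19.3 in shallow and 19.7 in deep barcodes of the fish oil/pectin library and 19.0 in shallow and 19.7 in deep barcodes of the corn oil/cellulose library, over the barcodes that still had 20 UMIs (44 of 64 and 724 of 4489 shallow ones). When deep meant at least 200 UMIs, the deep barcodes of the fish oil/pectin library had a median of 5.62 genes, below the shallow ones.

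The next class up, barcodes of 50 to 99 UMIs, gives a look at libraries that have few or no shallow barcodes. In fish oil/pectin replicate 2 it held 521 barcodes, in fish oil/pectin replicate 3 274 and in corn oil/cellulose replicate 2 70. Its mitochondrial share was 38.4% against 11.0% in deep barcodes of fish oil/pectin replicate 2, 60.1% against 15.8% in fish oil/pectin replicate 3, and 4.68% against 2.78% in corn oil/cellulose replicate 2. Its globin share was 4.87% against 45.5% in deep barcodes of fish oil/pectin replicate 2, 11.0% against 61.7% in fish oil/pectin replicate 3, and 27.5% against 41.5% in corn oil/cellulose replicate 2. The epithelial share was 1.52, 2.60 and 2.11 times that of deep barcodes in these 3 libraries. Smooth muscle ratios were 2.05, 3.16 and 2.12, above 1 as in corn oil/cellulose replicate 1. Fibroblast ratios were 1.93 in fish oil/pectin replicate 2, 0.581 in fish oil/pectin replicate 3 and 0.434 in corn oil/cellulose replicate 2. An edgeR fit over these 3 libraries, added after the data had been seen, called 1 of 1132 genes higher (0.0883%) and 50 lower (4.42%), or 4.51% in either direction. Its lower genes included Hbb-bt (log2 fold change -4.08), Hbb-bs (-2.89), Hba-a2 (-2.83), Alas2 (-3.43) and Bpgm (-4.63), and 4 genes were called in both fits. The higher gene was Igha (log2 fold change 1.57, SE 0.51, adjusted p = 0.0487), with 49 and 22 UMIs in the 50 to 99 and deep classes of fish oil/pectin replicate 2, 13 and 18 in fish oil/pectin replicate 3 and none in corn oil/cellulose replicate 2. The call ended without either fish oil/pectin library, and 9 genes were called higher without corn oil/cellulose replicate 2. The lower calls numbered 19 without fish oil/pectin replicate 2, 22 without fish oil/pectin replicate 3, and 9 with no library block. Mitochondrially encoded genes were all 13 above 0, with a median of 0.69, beside 491 of 1132 genes above 0. None of the 13 was called, and mt-Nd6 had an edgeR adjusted p of 0.911.

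Between diets there was 1 library of at least 10 shallow barcodes on each side, so no test could be made, and mouse and diet cannot be told apart. The shallow barcodes of fish oil/pectin replicate 1 had 24.2% mitochondrial and 9.11% globin UMIs, against 46.1% and 1.38% in corn oil/cellulose replicate 1. Epithelial genes made up 0.582% against 0.990%, goblet genes 0.465% against 1.27% and smooth muscle genes 0.116% against 0.797%. Adipocyte and mesothelial genes made up 0.504% against 0.129%, and fatty acid synthesis genes 0.504% against 0.0767%. Of the adipocyte and mesothelial UMIs, Krt19, also on the epithelial list, gave 2 of 13 in fish oil/pectin replicate 1 and 144 of 155 in corn oil/cellulose replicate 1. The median depth of these barcodes, 40 against 24 UMIs, differed with the library too, and its part in these values was not tested.

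The single shallow barcode of fish oil/pectin replicate 2 held 35 UMIs of 28 genes. It had 3 UMIs of Defa21 and 1 each of Defa39, Lyz1, Ang4, Reg3b and Dmbt1. The first 4 of these encode antimicrobial proteins known from Paneth cells, which belong to the small intestine. It also held 4 mitochondrially encoded UMIs and no globin. All other shallow barcodes together had no UMI of Defa21 or Defa39, but those of corn oil/cellulose replicate 1 had 18 UMIs of Ang4, 2 of Lyz1, 2 of Reg3b and 87 of Dmbt1. The rest of fish oil/pectin replicate 2 had 8 UMIs of Defa21 among 154326, and the other libraries had 0 or 1; Defa39 had 2 UMIs in the barcodes of at least 50 UMIs of corn oil/cellulose replicate 1 and 3 in corn oil/cellulose replicate 3. Defensin genes are a family of close copies, so their split is uncertain, and 1 barcode is no replicate.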

How the data were processed

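The deposited matrices hold raw UMI counts per gene and barcode with no normalization, per the file headers; Cell Ranger 8.0.0 made them and the builds mm10 and GRCm39 are named, per the submitters' processing notes. The rule by which barcodes were called and probe filters are not given in the sources used here. Barcodes were taken by their total UMIs, under 50 (shallow), 50 to 99 and at least 100 (deep), and counts were summed per library and class. Libraries held 34758 to 245476 UMIs and 106 to 5180 barcodes. With at least 10 barcodes per class, 2 libraries entered the test of shallow against deep sums. Genes were kept by filterByExpr at a minimum count of 5, scaled with TMM and fitted with a library block by the robust quasi-likelihood method of edgeR 4.0.16 (R 4.3.3); a Benjamini-Hochberg adjusted p under 0.05 was a call. The fit was tested on simulated data first. Since both classes come from the same library and mouse, the block pairs them. Shares were computed with Python 3.11.15 and SciPy 1.17.1, with exact binomial intervals at 95% and exact conditional intervals for ratios. Alternatives were other scalings, no count filter, DESeq2 1.42.0, no block and other class limits. Others were a thinned deep sum in fish oil/pectin replicate 1, and leaving out globin and mitochondrial genes or each library. No libraries were copies of each other: chi-square per degree of freedom was at least 3.40 over 28 pairs.

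The mouse is the replicate, as the labels number biological replicates, and barcodes of 1 library are not independent samples. Genes named are those called, the 10 of smallest p per direction where fewer pass, the 15 with the most UMIs in shallow barcodes and up to 4 per list with the most UMIs there; not all are printed, and the genes of the single barcode of fish oil/pectin replicate 2 were chosen after their values were seen. The members and the 32 gene lists were chosen with earlier results of these data known. The list of cytoplasmic ribosomal protein genes had none of its genes among the 19065 in the files. Positions are those of the GENCODE annotation on GRCm38, looked up by gene ID. Pools of libraries were read from shared droplet barcodes.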

Additional observations from a re-analysis of the deposited data

Results flagged for a closer look

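Some gene lists differed in share between shallow and deep barcodes in opposite directions in the 2 libraries. These differences between libraries were not tested, since each diet had 1 such library. Smooth muscle genes were -0.115 percentage points in fish oil/pectin replicate 1 and 0.458 in corn oil/cellulose replicate 1. Adipocyte and mesothelial genes were -0.100 points in the fish oil/pectin library and 0.0330 in the corn oil/cellulose library. Krt19, a keratin also on the epithelial list, gave 144 of the 155 shallow and 21 of the 42 deep UMIs in the corn oil/cellulose library. In the fish oil/pectin library it gave 2 of 13 and 7 of 154, so the opposite directions of this list rest largely on Krt19. Immediate early and heat shock genes were 0.0874 points in the fish oil/pectin library and -0.104 in the corn oil/cellulose library. Genes for folding secreted proteins in the endoplasmic reticulum were 0.0300 points in the fish oil/pectin library and -0.00618 in the corn oil/cellulose library, and ferroptosis suppressors were -0.00972 and 0.0401 points in these libraries. With globin and mitochondrial UMIs left out of the total, the folding genes had ratios of 1.11 in the fish oil/pectin library and 1.29 in the corn oil/cellulose library. These are no longer on opposite sides of 1. The other 4 lists stayed on opposite sides. For immediate early and heat shock genes, however, the corn oil/cellulose ratio was 0.978, close to 1, beside 1.32 in the fish oil/pectin library. The fish oil/pectin sums of these lists rest on 3 to 13 UMIs in shallow barcodes.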

How the results depend on the processing

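Shallow against deep calls, 3 higher and 4 lower with edgeR, depended on the settings. The main fit tested 771 genes. With no count filter (13909 genes tested), and with no replicate block, the calls were 0 higher and 0 lower. DESeq2 called 0 higher and 1 lower. Shallow meaning under 40 UMIs gave 0 and 2, and no globin or mitochondrial genes in the fit gave 0 and 0 (26 of 648 and 49 of 814 genes tested at an unadjusted p under 0.05). Scaling by library size only gave 0 higher. Deep meaning at least 200 UMIs gave 12 and 8 of 205 genes tested, and deep meaning at least 50 UMIs gave 1 higher of 1449. Thinning the deep sum of fish oil/pectin replicate 1 to its shallow total gave 24 and 30 of 424. The deep sum of corn oil/cellulose replicate 1, 43643 UMIs, was already below its shallow sum of 119953 and was not thinned. The cause of these changes in the calls was not tested. The 7 called genes kept their direction in all 78 of their alternative values. With 1 library left out no residual degree of freedom remained, so no count could be had.

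For barcodes of 50 to 99 UMIs, 1 higher and 50 lower in 3 libraries, DESeq2 gave 0 and 33, no replicate block 0 and 9, no count filter 0 higher, and library size only 25 and 33. Without 1 library the counts ran from 0 to 9 higher and from 19 to 39 lower.

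The mean epithelial difference over the 2 libraries was 0.425 percentage points and 0.238 with shallow meaning under 40 UMIs, which leaves 28 barcodes in fish oil/pectin replicate 1. The difference in genes at 20 UMIs was -2.87, -0.522 without globin and mitochondrial genes, and reversed to 3.91 with deep meaning at least 200 UMIs. Over the class limits tried, the globin difference was -19.6 to -29.2 points, beside -23.0, and the mitochondrial one 22.7 to 26.1, beside 26.3. With 1 library left out, which leaves the other's own value, globin ran from -12.6 to -33.5 points, mitochondrial genes from 21.7 to 30.9 and epithelial genes from 0.346 to 0.504; genes at 20 UMIs ran from -1.42 to -4.32. Droplet shares stayed within their intervals. With 2579 UMIs in the shallow barcodes of fish oil/pectin replicate 1, a list at 0 is limited only to 0.116%.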
